A study of Mus musculus with 20 samples.

Results

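The genes described here are 45 regulators and executors of the cell cycle and of mitosis, taken by name from a fixed list of gene symbols. That list was drawn up with earlier results of these data known. Of these, 43 had a probe set paired with a single gene symbol, out of 19937 genes measured in that way, and where a gene had several such probe sets the one with the highest mean over the 20 arrays was used. Ccnb1 and Cdkn1a had no single-symbol probe set and are not analysed here. The members fell into 34 genes of S, G2 and M phase, which are the proliferation antigen Mki67, topoisomerase, the E, A and B cyclins, Cdk1, replication, nucleotide synthesis and mitotic genes with Foxm1 and E2f1, and 9 other members, which are the D cyclins, Cdk2, Cdk4, Cdk6 and the inhibitors Cdkn1b, Cdkn1c and Cdkn2c.

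Expression was measured on 20 Affymetrix arrays in 7 groups of mammary epithelial cells, sorted from mice of a mixed FVB/CD-1 background at 4 weeks after tamoxifen. Control mice carried K8-creERT2, a tamoxifen-activated Cre recombinase under the keratin 8 promoter, which is active in luminal cells. Their GFP-negative cells gave 3 arrays each from the basal gate (CD24 low, Sca1 negative) and the Sca1-negative and Sca1-positive luminal gates (CD24 high). Mutant mice carried K8-creERT2/PIK3CA H1047R, in which tamoxifen turns on a transgene for an active form of the PI3K catalytic subunit in recombined cells, with GFP as the mark of expression. From mutants there were 3 arrays of GFP-positive basal cells and 3 of GFP-negative basal cells, which do not express the transgene. Luminal cells of mutants were all GFP-positive, with 3 arrays from the Sca1-negative gate and 2, numbered 1 and 3, from the Sca1-positive gate. No control array held GFP-positive cells. In comparisons of GFP-positive mutant with control cells, the transgene, recombination and sorting on GFP therefore cannot be told apart. Both genotypes received tamoxifen per the labels, every gate excluded CD45-positive cells, and glands of 2 to 3 estrus-synchronized mice were pooled per genotype in each of 3 sortings.

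Passage through the cell cycle is driven by cyclin-dependent kinases. D cyclins with Cdk4 or Cdk6, and then E cyclins with Cdk2, phosphorylate the retinoblastoma protein and release E2F factors, which switch on the genes of DNA synthesis; A and B cyclins with Cdk1, together with Foxm1, then drive entry into mitosis. Inhibitors of the Cip/Kip and INK4 families hold these kinases back, and in the adult mammary gland at rest only a small share of the cells is in cycle.

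Promoter sequences are shown first for 6 members, because many genes of S, G2 and M phase are known to share promoter elements. Whether these elements bear on the levels measured here was not tested. The elements searched were the cell cycle homology region TTTGAA, the CCAAT box and 4 words of the E2F site (TTTCGCGC, TTTGGCGC, TTTCCCGC and TTTGCCGC), each on both strands. The 150 bases before the annotated start are given 5′ to 3′ on the strand of the gene, from RefSeq on GRCm38.p6, with every match in capitals. Mki67, Top2a and Cdk1 stand for genes that were high on replicate 3 of GFP-positive mutant basal cells, although Rrm2 rose further there. Ccnb2 stands for the B cyclins, Mcm6 for the replication genes, and Mad2l1 for the member with the widest range.
Mki67 (chr7:135716380-135716529, minus strand): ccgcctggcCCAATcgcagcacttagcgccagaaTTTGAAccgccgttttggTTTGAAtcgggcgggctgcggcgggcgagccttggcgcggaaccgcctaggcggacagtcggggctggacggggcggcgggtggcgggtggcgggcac
Top2a (chr11:99024190-99024339, minus strand): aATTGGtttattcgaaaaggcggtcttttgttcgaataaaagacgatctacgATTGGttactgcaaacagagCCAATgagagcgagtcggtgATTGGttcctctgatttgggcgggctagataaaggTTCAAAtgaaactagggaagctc
Cdk1 (chr10:69352913-69353062, minus strand): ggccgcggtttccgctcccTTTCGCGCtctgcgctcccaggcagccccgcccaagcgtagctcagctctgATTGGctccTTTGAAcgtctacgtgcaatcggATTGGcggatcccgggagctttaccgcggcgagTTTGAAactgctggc
Ccnb2 (chr9:70421555-70421704, minus strand): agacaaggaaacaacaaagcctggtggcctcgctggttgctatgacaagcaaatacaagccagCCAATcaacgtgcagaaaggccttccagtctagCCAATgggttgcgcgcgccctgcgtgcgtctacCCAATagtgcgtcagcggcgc
Mcm6 (chr1:128359706-128359855, minus strand): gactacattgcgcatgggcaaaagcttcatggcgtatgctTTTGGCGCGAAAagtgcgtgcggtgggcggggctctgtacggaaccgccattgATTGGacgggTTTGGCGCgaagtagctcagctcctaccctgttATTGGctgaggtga
Mad2l1 (chr6:66535071-66535220, plus strand): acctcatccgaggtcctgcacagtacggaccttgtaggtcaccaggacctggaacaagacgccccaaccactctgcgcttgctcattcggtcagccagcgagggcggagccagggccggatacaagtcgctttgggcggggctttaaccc
Mki67 held TTTGAA at 116 and at 98 bases before the start, counted to the first base of the match, and a CCAAT box at 141 bases. Cdk1 held TTTGAA at 71 and 15 bases and an E2F word at 131 bases, and Top2a held TTTGAA on the opposite strand at 23 bases beside 4 CCAAT boxes. Ccnb2 held 3 CCAAT boxes, each 33 bases from the next. Mcm6 held 3 E2F words, of which the pair at 110 and 106 bases overlap on opposite strands. None of these letters was found in the stretch shown for Mad2l1, which says nothing on the factors that act there.

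Among the 26 S, G2 and M phase members with a promoter entry, 14 (53.8%) held TTTGAA within the 300-base window from 250 bases before to 50 bases after the start, against 18.1% of 27025 genes. A CCAAT box was found in 21 of the 26 (80.8%, against 37.9% of all genes), and all 14 members with TTTGAA also had one (53.8%, against 7.12%). An E2F word was found in 4 of the 26 (15.4%, against 2.32%). Of the 6 other members with an entry, 0 held TTTGAA, 2 held a CCAAT box and 1 held an E2F word. These are matches of letters, given as a description. Ccna2, Ccne2, Ccnd1, Ccnd2, Cdkn1c, Cdc25c, Aurkb, Kif20a, Tpx2, Mcm4 and Foxm1 had no entry.

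All levels below are deposited log2 values of single probe sets, so 1 unit is a 2-fold difference, and levels of different genes are not compared. Where arrays of groups are said not to overlap, or to lie all above or below others, this describes those arrays only. It is no test, and the share of all genes that separate so is not given. The basal and luminal gates matched their marker genes. The mean of 8 basal markers lay between 9.08 and 9.71 on all basal arrays and between 4.40 and 5.35 on all luminal arrays, and the mean of 6 luminal markers lay between 10.6 and 10.9 on luminal arrays and between 7.56 and 9.17 on basal arrays. Immune markers stayed between 3.65 and 4.03 on every array. The Sca1 gates could not be checked by Ly6a, the Sca1 gene, which had no single-symbol probe set. In controls the mean of 5 hormone-sensing markers was 6.61 to 6.99 in the Sca1-negative and 7.22 to 7.74 in the Sca1-positive gate. For 6 luminal progenitor markers it was 8.45 to 8.82 and 6.24 to 6.48. Array medians lay between 3.66 and 3.80. For 17 of the 43 members the mean was below 3.83, the median of all gene values, and 16 of these were S, G2 and M phase genes, so differences in them may be hard to see on these arrays. In RNA from sorted pools, fewer cells in cycle and less RNA per cycling cell cannot be told apart.

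Across the 7 groups, 9 of the 43 members differed by limma's moderated F test at a Benjamini-Hochberg adjusted p under 0.05, against 20.7% of all 19937 genes. These were Ccnd1, Ccnd2, Cdk2, Cdk4, Cdk6, Cdkn1c, Mad2l1, Mcm6 and Prc1. Of the 34 S, G2 and M phase genes 3 passed (8.82%), and of the 9 other members 6 passed (66.7%). Their group means covered a median range of 0.49 and 0.93, in that order, against 0.43 over all genes. The members' group means spanned from 0.11 (Mcm3, a subunit of the replicative helicase) to 4.28 (Mad2l1).

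**Figure D1:**
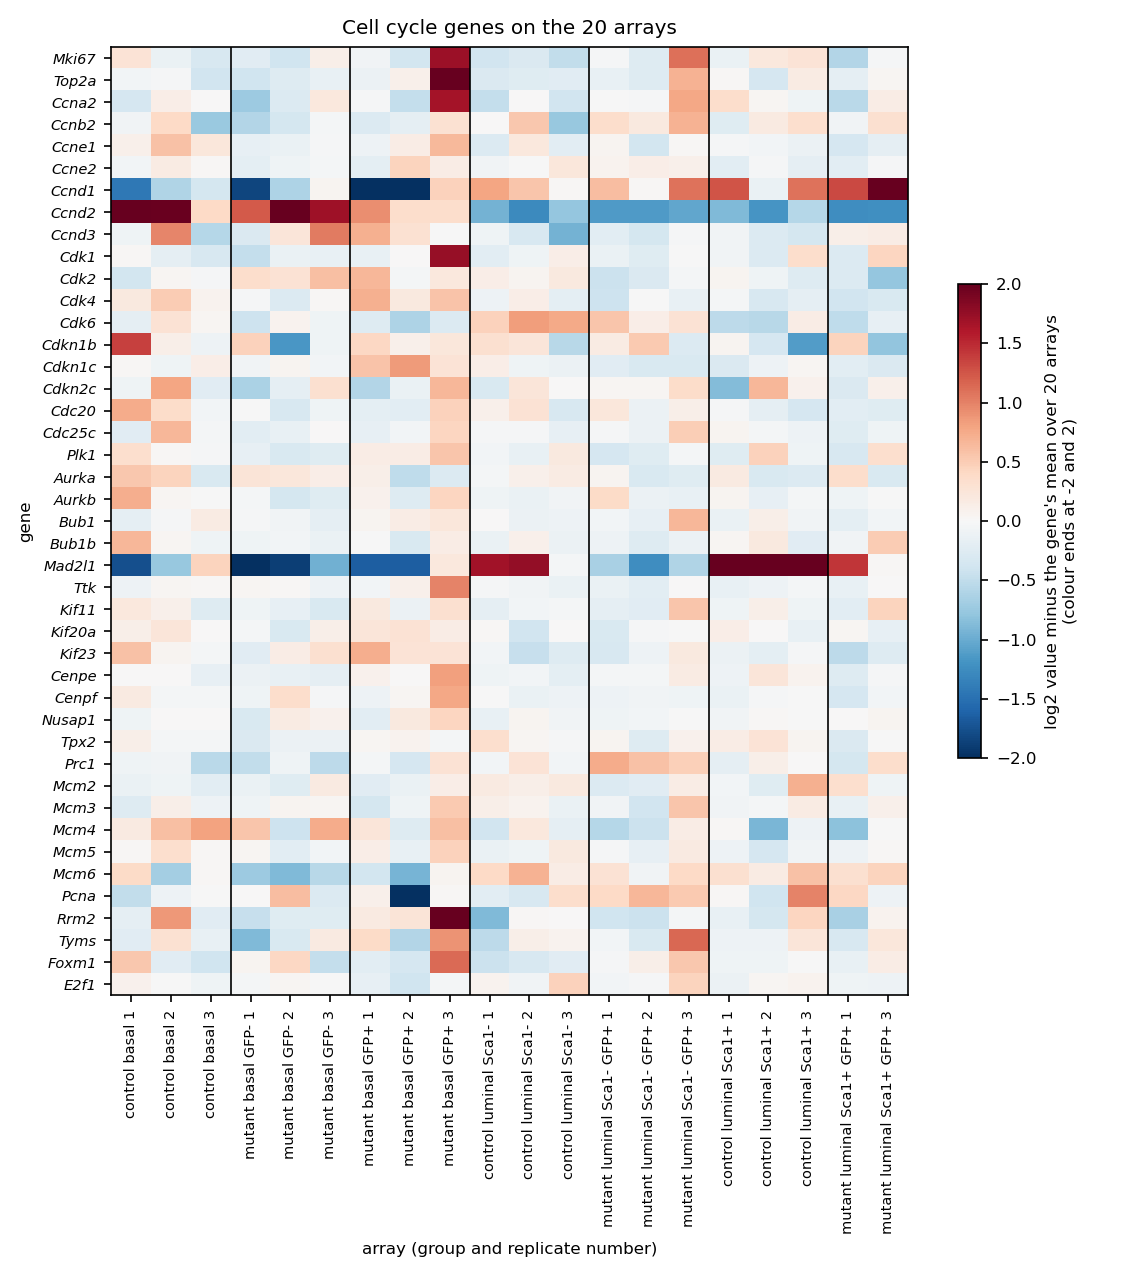
Heat map of the 43 genes (rows, by role) on the 20 arrays (columns, by group and replicate number). Colour is the log2 value minus the gene's mean over the 20 arrays, ending at -2 and 2. Ccnd2 is high on all basal arrays, Mad2l1 is high on all 3 control Sca1-positive luminal arrays, and replicate 3 of GFP-positive mutant basal cells is high for Mki67, Top2a, Ccna2, Cdk1, Rrm2 and Foxm1 together.

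Of the D cyclins, which start the cycle in response to growth signals, Ccnd2 was higher in basal than in luminal cells of both genotypes. Ccnd2 was 8.0, 7.73 and 6.15 on the control basal arrays, 6.98, 7.97 and 7.45 in GFP-negative mutant basal cells and 6.68, 6.10 and 6.11 in GFP-positive mutant basal cells. Luminal arrays read 4.81, 4.48 and 4.97 (control, Sca1 negative), 4.87, 4.57 and 5.18 (control, Sca1 positive), 4.61, 4.62 and 4.71 (mutant, Sca1 negative) and 4.51 and 4.53 (mutant, Sca1 positive). The lowest basal array was thus above the highest luminal array. In controls Ccnd2 was higher in basal than in Sca1-negative luminal cells by 2.54 (5.81-fold, SE 0.366, adjusted p = 0.000191, limma) and than in Sca1-positive luminal cells by 2.42 (adjusted p = 0.000235). GFP-positive mutant basal cells also exceeded both mutant luminal groups, by 1.65 (adjusted p = 0.0073) and 1.78 (adjusted p = 0.00879). The second of these missed the threshold without Sca1-positive luminal replicate 1 or 3 (adjusted p = 0.0678 and 0.0653), which leaves 1 array in that group. Between GFP-positive mutant and control basal cells the difference was -1.0 (95% interval -1.78 to -0.22, adjusted p = 0.168), and against GFP-negative basal cells it was -1.17 (-1.95 to -0.39, adjusted p = 0.114), with GFP-positive arrays all below the GFP-negative ones but overlapping control replicate 3. Without that control array both differences passed.

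Ccnd1, the D cyclin best known from breast cancer, was lower in basal than in luminal cells in 1 of the 4 comparisons of the lineages, that with Sca1-positive luminal cells of mutants. It was 5.43, 6.24 and 6.49 in control basal cells, 5.02, 6.24 and 6.91 in GFP-negative mutant basal cells, and 4.66, 4.74 and 7.31 in GFP-positive mutant basal cells, where replicate 3 stood 2.62 above the mean of the other two. On luminal arrays the values were 7.64, 7.40 and 6.87 (control, Sca1 negative), 8.10, 6.71 and 7.93 (control, Sca1 positive), 7.46, 6.88 and 7.94 (mutant, Sca1 negative), and 8.17 and 8.84 (mutant, Sca1 positive). The Sca1-positive mutant arrays were thus the highest of the 20. GFP-positive basal replicate 3 (7.31) lay above 3 luminal arrays (6.71, 6.87 and 6.88). Ccnd1 was lower in GFP-positive mutant basal than in mutant Sca1-positive luminal cells, with a difference of -2.94 (7.65-fold, SE 0.711, adjusted p = 0.0123). This call was lost without GFP-positive basal replicate 1 or 2 (adjusted p = 0.0514 and 0.0561) and without Sca1-positive luminal replicate 3 (adjusted p = 0.131). The F call (adjusted p = 0.0333) was lost without any one of 9 arrays, which were control basal replicate 1, control Sca1-positive luminal replicates 1 and 3, GFP-positive basal replicates 1 and 2, mutant Sca1-negative luminal replicates 1 and 3 and both mutant Sca1-positive luminal arrays, with adjusted p between 0.0515 and 0.10. None of the 5 comparisons of the mutant passed for Ccnd1; the largest difference was 0.92 in Sca1-positive luminal cells (95% interval -0.59 to 2.44, adjusted p = 0.732). Ccnd3, the third D cyclin, had group means between 5.07 and 5.86 and no call.

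Among mutant cells Cdk4 was higher and Cdk6 lower in GFP-positive basal than in Sca1-negative luminal cells; both are kinases that pair with D cyclins. Cdk4 was 8.23, 7.72 and 8.09 in GFP-positive mutant basal cells, 7.72, 8.02 and 7.59 in control basal cells, and 7.49, 7.25 and 7.55 in GFP-negative basal cells. On the 11 luminal arrays it stayed between 7.10 and 7.65, so that the GFP-positive basal arrays were above every luminal and every GFP-negative basal array. GFP-positive mutant basal cells exceeded mutant Sca1-negative luminal cells by 0.68 (1.61-fold, SE 0.153, adjusted p = 0.00774) and mutant Sca1-positive luminal cells by 0.83 (adjusted p = 0.00378). Against GFP-negative basal cells the difference of 0.58 (95% interval 0.26 to 0.91) had an adjusted p of 0.0503. It fell below 0.05 with array weights, quantile normalization, the mean of a gene's probe sets or the pool as a random block, and without control basal replicate 2 or 3, GFP-positive basal replicate 2 or mutant Sca1-negative luminal replicate 1. Without GFP-positive basal replicate 2, Cdk4 was called there and Cdkn1c was not.

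Cdk6 was 4.87, 5.25 and 5.17 in control Sca1-negative luminal cells and 4.97, 4.54 and 4.70 in the mutant ones. It was 3.90, 3.86 and 4.57 in control Sca1-positive luminal cells and 3.91 and 4.26 in the mutant ones. The basal arrays held 4.24, 4.70 and 4.46 (control), 4.01, 4.48 and 4.32 (GFP-negative) and 4.16, 3.81 and 4.15 (GFP-positive). The 3 control Sca1-negative luminal arrays were therefore above all control Sca1-positive and all basal arrays. In controls Cdk6 was lower in Sca1-positive than in Sca1-negative luminal cells, by -0.99 (1.98-fold, SE 0.200, adjusted p = 0.0291). This call was lost without Sca1-negative luminal replicate 2 or 3 and without Sca1-positive luminal replicate 1 or 2 (adjusted p = 0.117, 0.109, 0.119 and 0.124). In mutants it was lower in GFP-positive basal than in Sca1-negative luminal cells by -0.70 (adjusted p = 0.0364). That difference missed the threshold without GFP-positive basal replicate 1, 2 or 3 (adjusted p = 0.0550, 0.158 and 0.0565) and without Sca1-negative luminal replicate 1 or 3 (adjusted p = 0.162 and 0.0860).

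Cdk2, which acts with E and A cyclins at the start of DNA synthesis, was highest in the basal cells of mutant mice. It was 5.43, 5.37 and 5.67 in GFP-negative and 5.74, 5.03 and 5.29 in GFP-positive mutant basal cells, against 4.70, 5.11 and 5.06 in control basal cells. In luminal cells it was 5.21, 5.12 and 5.27 (control, Sca1 negative), 5.13, 4.99 and 4.81 (control, Sca1 positive), 4.64, 4.78 and 5.03 (mutant, Sca1 negative), and 4.81 and 4.30 (mutant, Sca1 positive). GFP-negative mutant basal arrays did not overlap control basal arrays, but the difference of 0.53 (95% interval 0.15 to 0.91) did not pass (adjusted p = 0.315). The called difference was between GFP-positive basal and Sca1-positive luminal cells of mutants (0.80, SE 0.201, adjusted p = 0.0154). It was lost without GFP-positive basal replicate 1 (adjusted p = 0.0605) and without Sca1-positive luminal replicate 3 (0.55, adjusted p = 0.269), and without the latter array the F test also missed (adjusted p = 0.0571).

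Of the inhibitors, Cdkn1c (p57, a Cip/Kip inhibitor that also restrains growth as an imprinted gene) was the member called in the comparisons of mutant basal cells. It was 4.73, 5.0 and 4.42 in GFP-positive mutant basal cells, 4.18, 4.07 and 4.28 in control basal cells and 4.08, 4.2 and 4.10 in GFP-negative mutant basal cells. The GFP-positive arrays were above every other array of the study, since luminal arrays ran from 3.84 to 4.28. Cdkn1c rose in GFP-positive mutant over control basal cells by 0.54 (1.46-fold, SE 0.126, adjusted p = 0.0204), with 1 of 43 members called against 4.23% of all genes. It was higher than in GFP-negative mutant basal cells by 0.59 (1.5-fold, adjusted p = 0.0151), again as 1 of 43 members, against 3.25% of all genes. The first call was lost without control basal replicate 1 or 2 (adjusted p = 0.0541 and 0.0763) or GFP-positive replicate 1 or 2 (0.0638 and 0.0818). The second was lost without GFP-negative replicate 1 or GFP-positive replicate 2 (adjusted p = 0.0546 and 0.0578). When only the arrays compared were fitted, the difference to control was the same and its adjusted p was 0.248.

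In Sca1-negative luminal cells Cdkn1c was 4.28, 4.06 and 4.03 in controls and 3.92, 3.85 and 3.84 in mutants, a difference of -0.26 (95% interval -0.52 to 0.01, adjusted p = 0.471). The mutant arrays were all below the control ones. The change in basal cells minus that in Sca1-negative luminal cells was 0.80 (SE 0.178, adjusted p = 0.0318; 1 of 43 members, against 1.55% of all genes). That call was lost without any one of 9 arrays (control basal replicates 1 and 2, control Sca1-negative luminal replicates 1 and 2, GFP-positive basal replicates 1 and 2, and each mutant Sca1-negative luminal replicate), with adjusted p between 0.0563 and 0.0907. Within mutants Cdkn1c was higher in GFP-positive basal than in Sca1-negative luminal cells by 0.85 (adjusted p = 0.000270) and than in Sca1-positive luminal cells by 0.81 (adjusted p = 0.000927), where its arrays were 3.94 and 3.87. Markers of other cell types also differed between GFP-positive mutant and control basal cells. Of 6 luminal markers 2 rose, with marker means of 8.05 to 9.17 on the arrays against 7.56 to 8.42, and of 6 luminal progenitor markers 2 rose, with means of 6.11 to 7.01 against 5.59 to 5.83. Of 6 fibroblast markers 2 rose, with means of 4.95 to 5.20 against 4.33 to 4.49. These were Dcn, a matrix proteoglycan (10.58 against 7.43, and 10.48 and 11.20 in the control luminal gates), and Col1a2 (5.16 against 4.28). Pdgfra, Col1a1, Col3a1 and Lum were slightly lower, and the median difference of the list was -0.03. Of 4 pericyte markers 1 rose (Cspg4, 4.18 against 3.46), while the median difference of that list was -0.05. Of 8 basal markers 2 fell, and of the 5 hormone-sensing and the 5 endothelial markers 1 each fell. The part of these markers in the result was not tested.

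Cdkn1b (p27), a Cip/Kip inhibitor that PI3K signalling is known to restrain through AKT, was not called in any comparison. Its group means ran from 6.94 ± 0.60 (SD, n = 3, control Sca1-positive luminal) to 7.87 ± 0.79 (SD, n = 3, control basal), and the F test did not pass (adjusted p = 0.688). On the arrays it was 8.77, 7.53 and 7.31 (control basal), 7.88, 6.24 and 7.33 (GFP-negative basal) and 7.82, 7.51 and 7.63 (GFP-positive basal). The luminal values were 7.73, 7.65 and 6.86 (control, Sca1 negative), 7.57, 7.93 and 7.13 (mutant, Sca1 negative), 7.47, 7.07 and 6.29 (control, Sca1 positive), and 7.85 and 6.63 (mutant, Sca1 positive). Most groups overlapped, but the GFP-positive basal arrays were all above the control Sca1-positive luminal ones. A second Cdkn1b probe set, with a lower mean over the arrays (6.11 against 7.41), did not share this. It ran from 5.26 to 6.85 in GFP-positive basal and from 5.69 to 5.87 in control Sca1-positive luminal cells. The mutant differences lay between -0.72 and 0.50, and the interval for Sca1-negative luminal cells ran from -0.86 to 1.12. Cdkn2c (p18, an INK4 inhibitor of Cdk4 and Cdk6) had group means between 3.64 and 3.96 and no call.

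**Figure D2:**
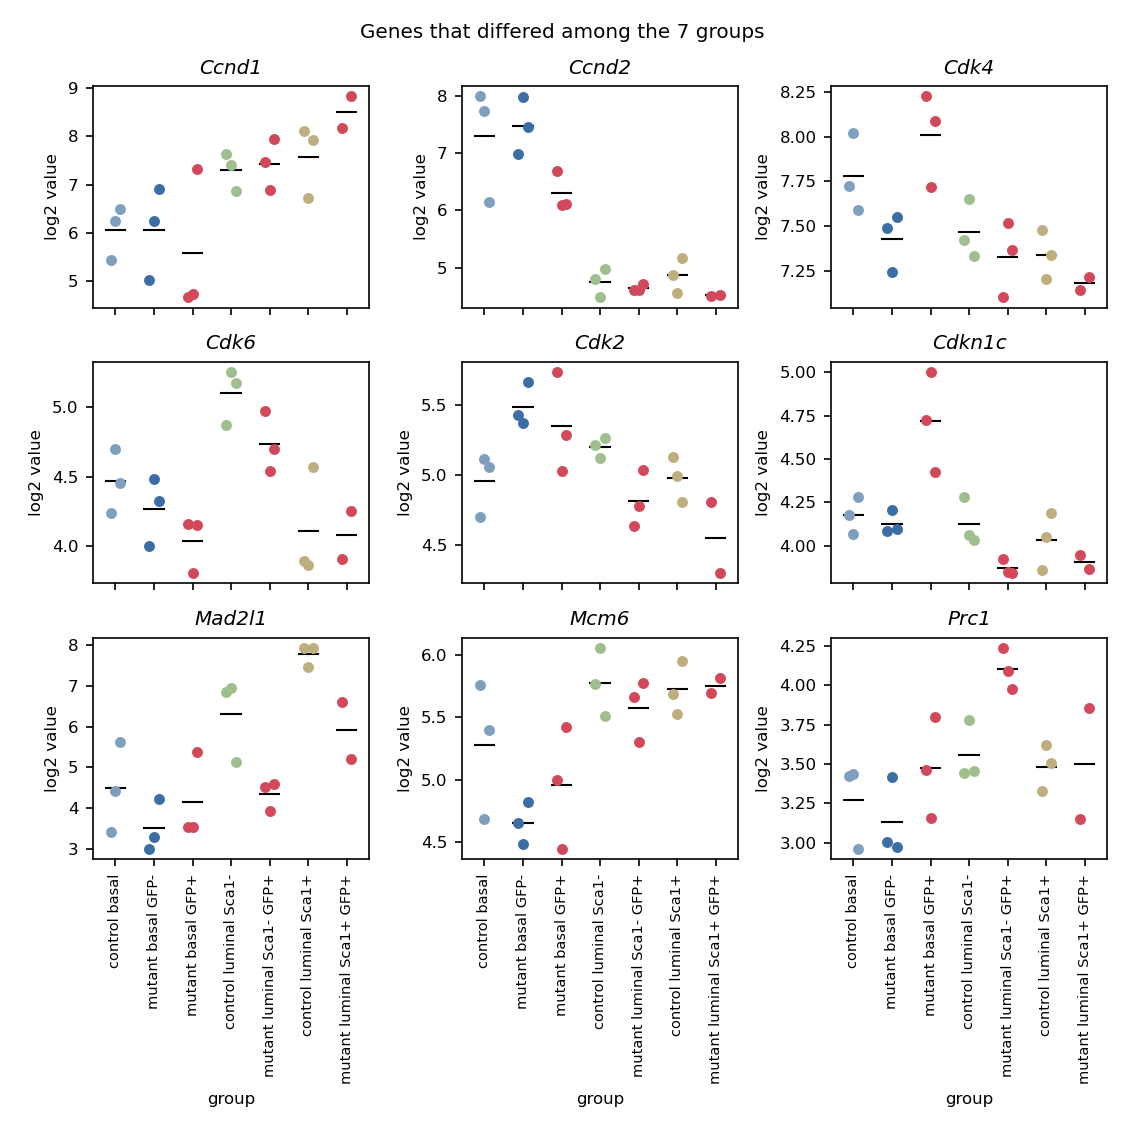
Log2 values of the 9 genes that passed the F test across the 7 groups. Each point is 1 array and each bar the group mean (n = 3, or 2 for mutant luminal Sca1+ GFP+); mutant GFP+ groups are red. The panels have their own scales. Ccnd2 is above 6 on every basal array and below 5.2 on every luminal array, and Cdkn1c is highest on the 3 GFP+ basal arrays.

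Of the 6 licensing and fork genes, Mcm6, a helicase subunit loaded at origins, passed the F test (adjusted p = 0.0201). It was 5.76, 4.69 and 5.40 in control basal, 4.65, 4.49 and 4.82 in GFP-negative basal, and 5.0, 4.44 and 5.42 in GFP-positive basal cells. On luminal arrays it was 5.77, 6.06 and 5.51 (control, Sca1 negative), 5.66, 5.30 and 5.77 (mutant, Sca1 negative), 5.69, 5.53 and 5.96 (control, Sca1 positive), and 5.69 and 5.82 (mutant, Sca1 positive). All luminal arrays were above the GFP-negative basal arrays. The F call was lost without GFP-negative basal replicate 1 or 2 (adjusted p = 0.0519 and 0.0600), and no single comparison of groups passed.

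Mcm4, another helicase subunit, was 5.31, 5.73 and 5.93 in control basal, 5.68, 4.71 and 5.88 in GFP-negative basal, and 5.38, 4.87 and 5.73 in GFP-positive basal cells. Luminal values were 4.75, 5.34 and 4.96 (control, Sca1 negative), 4.56, 4.71 and 5.27 (mutant, Sca1 negative), 5.16, 4.22 and 5.03 (control, Sca1 positive), and 4.31 and 5.12 (mutant, Sca1 positive). Basal means were thus above luminal means, with overlapping arrays and no call (F test adjusted p = 0.297).

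Mcm2 was 4.16, 4.21 and 4.08 in control basal, 4.17, 4.05 and 4.48 in GFP-negative basal, and 4.07, 4.16 and 4.43 in GFP-positive basal cells. Luminal arrays read 4.47, 4.41 and 4.49 (control, Sca1 negative), 4.02, 4.06 and 4.44 (mutant, Sca1 negative), 4.25, 4.05 and 5.01 (control, Sca1 positive), and 4.63 and 4.21 (mutant, Sca1 positive). Control Sca1-positive luminal replicate 3 stood above the rest (F test adjusted p = 0.734). Mcm3 and Mcm5 had group means within 0.11 and 0.32 of each other.

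Pcna, the sliding clamp of the polymerases, was 8.88, 9.26 and 9.36 in control basal, 9.37, 9.99 and 9.09 in GFP-negative basal, and 9.47, 7.20 and 9.39 in GFP-positive basal cells. Luminal values were 9.16, 9.05 and 9.73 (control, Sca1 negative), 9.76, 10.03 and 9.89 (mutant, Sca1 negative), 9.39, 8.97 and 10.36 (control, Sca1 positive), and 9.79 and 9.27 (mutant, Sca1 positive). The mutant Sca1-negative luminal arrays were all above the control ones, but the difference of 0.58 (95% interval -0.44 to 1.61) did not pass (adjusted p = 0.783). A second Pcna probe set gave a mean of 9.40 in the mutant and 9.53 in the control group, so the direction was not shared, and its lowest GFP-positive basal array was at 8.81.

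Among the cyclins and enzymes of S phase, none was called in the F test. Ccne1, the cyclin of Cdk2 at the G1/S border, was 4.02, 4.52 and 4.14 in control basal, 3.76, 3.79 and 3.90 in GFP-negative basal, and 3.83, 4.07 and 4.58 in GFP-positive basal cells. On luminal arrays the values were 3.65, 4.14 and 3.71 (control, Sca1 negative), 3.97, 3.55 and 3.95 (mutant, Sca1 negative), 3.89, 3.87 and 3.81 (control, Sca1 positive), and 3.59 and 3.74 (mutant, Sca1 positive). Control basal arrays were above GFP-negative basal arrays, with a difference of -0.41 for GFP-negative over control (adjusted p = 0.482). Ccne2 had group means between 3.43 and 3.7. Rrm2, the small subunit of ribonucleotide reductase, and Tyms, which makes thymidylate, had group means of 4.10 to 5.37 and 4.16 to 4.76.

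E2f1, a transcription factor of S phase genes, had no call. It was 3.68, 3.59 and 3.52 in control basal, 3.55, 3.64 and 3.59 in GFP-negative basal, and 3.43, 3.19 and 3.56 in GFP-positive basal cells. The luminal values were 3.67, 3.53 and 4.06 (control, Sca1 negative), 3.54, 3.58 and 4.04 (mutant, Sca1 negative), 3.48, 3.64 and 3.67 (control, Sca1 positive), and 3.51 and 3.50 (mutant, Sca1 positive). Its widest mutant difference was -0.20 in GFP-positive over control basal cells (95% interval -0.51 to 0.11, adjusted p = 0.563).

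Mad2l1, which holds cells before anaphase until every chromosome is attached to the spindle, had the widest range of all members. It was 7.94, 7.47 and 7.94 in control Sca1-positive luminal cells and 6.85, 6.94 and 5.13 in control Sca1-negative luminal cells, against 3.42, 4.43 and 5.62 in control basal cells. In mutants it was 6.61 and 5.21 (Sca1-positive luminal), 4.52, 3.93 and 4.58 (Sca1-negative luminal), 3.52, 3.53 and 5.39 (GFP-positive basal) and 2.99, 3.29 and 4.22 (GFP-negative basal). The control Sca1-positive arrays were above all others, and mutant and control luminal arrays did not overlap within either gate. In controls Mad2l1 was lower in basal than in Sca1-positive luminal cells by -3.30 (9.83-fold, SE 0.627, adjusted p = 0.00180), in this and in all 29 other fits.

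The mutant differences of Mad2l1 did not pass. They were -1.96 in Sca1-negative luminal cells (95% interval -3.30 to -0.63, adjusted p = 0.170). For the Sca1-positive luminal gate the difference was -1.87 (-3.37 to -0.38, adjusted p = 0.447). In basal cells they were -0.34 for GFP-positive and -0.99 for GFP-negative over control cells. Hormone-sensing markers moved in the same direction in the Sca1-negative gate, where 5 of 5 measured markers fell in the mutant, with marker means of 4.67 to 4.97 against 6.61 to 6.99; their part in the difference was not tested. In the Sca1-positive gate 0 of these 5 were called, with means of 7.29 to 7.5 against 7.22 to 7.74. The other checkpoint genes Bub1, Bub1b and Ttk had group means within 0.27, 0.37 and 0.46 of each other.

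Of the spindle genes, Prc1, which bundles the microtubules of the central spindle, was highest in mutant Sca1-negative luminal cells at 4.24, 4.09 and 3.98. The control arrays of that gate were 3.45, 3.78 and 3.46, and the Sca1-positive luminal arrays were 3.33, 3.62 and 3.51 (control) and 3.15 and 3.85 (mutant). On basal arrays it was 3.42, 3.44 and 2.96 (control), 3.01, 3.42 and 2.97 (GFP-negative) and 3.46, 3.16 and 3.80 (GFP-positive). The 3 mutant Sca1-negative luminal arrays were above all 17 others. Prc1 had a mean of 3.50 over the 20 arrays, below the median of all gene values (3.83). The F test passed (adjusted p = 0.0397), but the difference to control, 0.54 (95% interval 0.12 to 0.97), did not (adjusted p = 0.269). The F call was lost without any one of 9 arrays: control Sca1-negative luminal replicates 1 and 3, control Sca1-positive luminal replicate 3, GFP-negative basal replicates 1 and 3, GFP-positive basal replicate 1 and each of the mutant Sca1-negative luminal replicates. The adjusted p in these fits lay between 0.0519 and 0.157.

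Kif23, a kinesin of the central spindle needed for cytokinesis, was 4.54, 4.09 and 4.09 in GFP-positive basal, 4.42, 3.88 and 3.79 in control basal and 3.59, 3.97 and 4.15 in GFP-negative basal cells. In luminal cells it was 3.78, 3.36 and 3.56 (control, Sca1 negative), 3.50, 3.72 and 4.02 (mutant, Sca1 negative), 3.71, 3.63 and 3.80 (control, Sca1 positive), and 3.30 and 3.57 (mutant, Sca1 positive). GFP-positive basal arrays were above all luminal arrays. In mutants the difference of GFP-positive basal over Sca1-positive luminal cells, 0.81 (SE 0.216, adjusted p = 0.0228), was called. It was lost without GFP-positive basal replicate 1 (adjusted p = 0.0886) and without Sca1-positive luminal replicate 1 or 3 (adjusted p = 0.216 and 0.0584).

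Tpx2, which activates Aurka on the spindle, was 3.47, 3.32 and 3.33 in control basal, 3.07, 3.24 and 3.25 in GFP-negative basal, and 3.39, 3.43 and 3.32 in GFP-positive basal cells. Luminal values were 3.7, 3.40 and 3.34 (control, Sca1 negative), 3.41, 3.10 and 3.45 (mutant, Sca1 negative), 3.50, 3.63 and 3.41 (control, Sca1 positive), and 3.08 and 3.35 (mutant, Sca1 positive). All were near the lower end of the arrays' scale and no comparison passed. Kif11, Kif20a, Cenpe, Cenpf and Nusap1, motors and proteins of the spindle and centromere, had group means within 0.19 to 0.45 of each other, and the mitotic kinases and activators Plk1, Aurka, Aurkb, Cdc20 and Cdc25c within 0.29 to 0.57.

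Mki67, the antigen used to count cycling cells, was not called in any comparison. It was 5.73, 5.33 and 5.13 in control basal cells, 5.23, 5.05 and 5.58 in GFP-negative and 5.39, 5.09 and 7.16 in GFP-positive mutant basal cells. Luminal arrays read 5.06, 5.17 and 4.97 (control, Sca1 negative), 5.43, 5.20 and 6.56 (mutant, Sca1 negative), 5.32, 5.67 and 5.73 (control, Sca1 positive), and 4.86 and 5.43 (mutant, Sca1 positive). A single array in each of 2 mutant groups, replicate 3 of GFP-positive basal and of Sca1-negative luminal cells, was above 6, and the other 18 lay between 4.86 and 5.73. The mutant difference in Sca1-negative luminal cells was 0.66 (95% interval -0.25 to 1.58, adjusted p = 0.662), with no overlap of the arrays, and without mutant replicate 3 it was 0.25. In GFP-positive over control basal cells it was 0.49 (-0.43 to 1.40, adjusted p = 0.665), and without replicate 3 it was -0.15.

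Top2a, the topoisomerase that untangles replicated chromosomes, was 4.26, 4.28 and 3.92 in control basal, 3.91, 4.04 and 4.17 in GFP-negative basal, and 4.18, 4.41 and 6.35 in GFP-positive basal cells. On luminal arrays the values were 4.02, 4.06 and 4.09 (control, Sca1 negative), 4.16, 4.05 and 5.0 (mutant, Sca1 negative), 4.33, 3.97 and 4.48 (control, Sca1 positive), and 4.12 and 4.35 (mutant, Sca1 positive). The same 2 arrays as for Mki67 were the highest. The difference of GFP-positive over control basal cells was 0.83 (95% interval -0.03 to 1.68, adjusted p = 0.330) and 0.14 without replicate 3. A second Top2a probe set, with a lower mean over the arrays (3.22 against 4.31), ranged only from 2.52 to 3.81 in GFP-positive basal cells.

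Cdk1, the kinase of mitotic entry, was 4.16, 3.95 and 3.81 in control basal, 3.66, 4.00 and 3.98 in GFP-negative basal, and 3.99, 4.14 and 5.88 in GFP-positive basal cells. On luminal arrays it was 3.93, 4.05 and 4.26 (control, Sca1 negative), 4.00, 3.89 and 4.13 (mutant, Sca1 negative), 4.06, 3.85 and 4.49 (control, Sca1 positive), and 3.86 and 4.57 (mutant, Sca1 positive). Only the basal replicate 3 was above 5 here. The difference of GFP-positive over control basal cells was 0.70 (95% interval -0.07 to 1.46, adjusted p = 0.367), and 0.09 without that array.

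Foxm1, a transcription factor of G2 and M phase genes, was 4.48, 3.72 and 3.54 in control basal, 4.00, 4.36 and 3.46 in GFP-negative basal, and 3.74, 3.60 and 5.07 in GFP-positive basal cells. In luminal cells it was 3.51, 3.63 and 3.72 (control, Sca1 negative), 3.93, 4.07 and 4.48 (mutant, Sca1 negative), 3.86, 3.86 and 3.94 (control, Sca1 positive), and 3.79 and 4.09 (mutant, Sca1 positive). Mutant Sca1-negative luminal arrays were all above the control ones, by 0.54 (95% interval -0.17 to 1.24, adjusted p = 0.637).

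**Figure D3:**
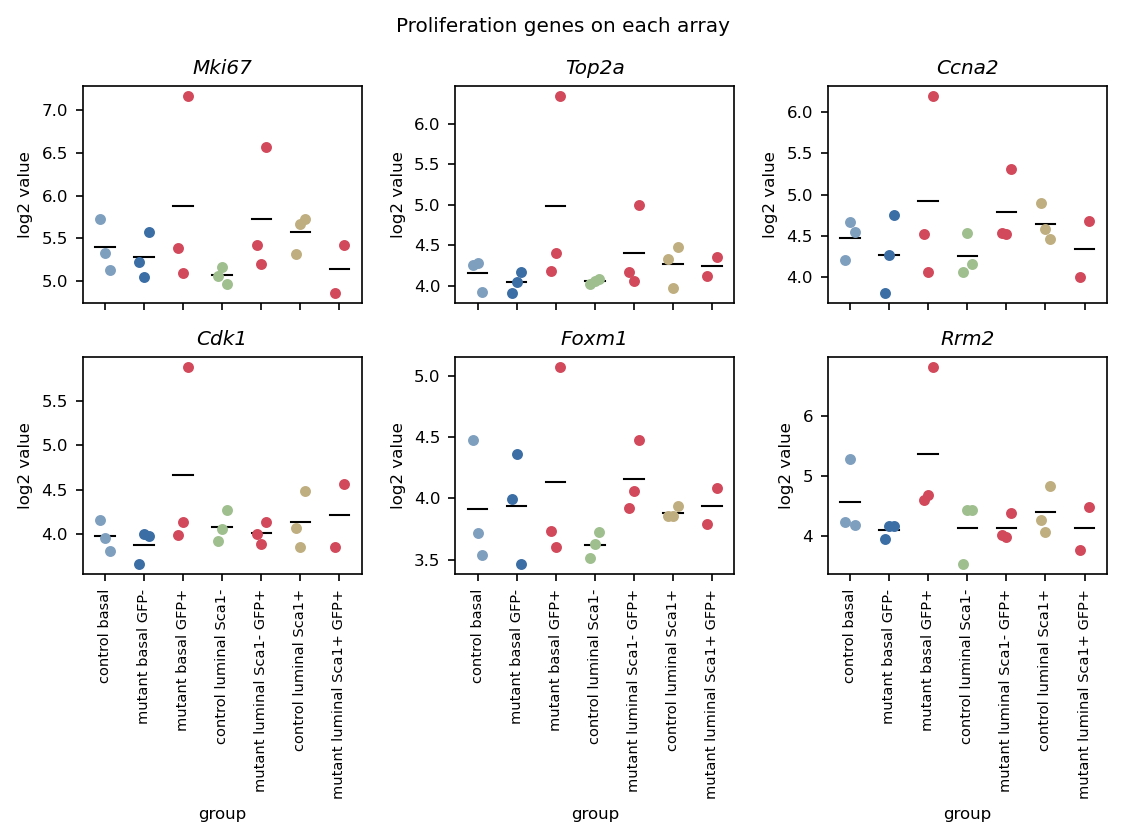
Log2 values of Mki67, Top2a, Ccna2, Cdk1, Foxm1 and Rrm2 in the 7 groups, with 1 point per array and a bar at each group mean; mutant GFP+ groups are red. Ccna2 and Rrm2 were added after their values were seen. In each panel the highest of all 20 points is in mutant basal GFP+ cells and belongs to replicate 3.

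Replicate 3 of GFP-positive mutant basal cells was the highest array of its group for 28 of the 34 S, G2 and M phase genes (82.4%, against 27.2% of all genes). It was the highest of all 20 arrays for 13 of the 34, a count not made over all genes. The mean of the 34 genes, each taken as the deviation from its own mean over the 20 arrays, was 0.61 on this array and -0.06 and -0.21 on replicates 1 and 2. On the remaining 17 arrays it ran from -0.25 to 0.26. The value of 0.26 was that of replicate 3 of mutant Sca1-negative luminal cells, which was the highest of its group for 25 of the 34 genes (73.5%, against 32.8% of all genes). Of the 2 mutant Sca1-positive luminal arrays, replicate 3 was the higher for 27 of the 34 (79.4%, against 49.8% of all genes). In GFP-negative basal cells replicate 3 was the highest of its group for 15 (44.1%, against 31.8% of all genes). The means there were -0.25, -0.17 and -0.09 on replicates 1, 2 and 3. The array numbered 3 thus had the highest mean in each of the 4 mutant groups. In controls it had the highest mean in Sca1-positive luminal cells (0.15) and the lowest in basal cells (-0.08). In control Sca1-negative luminal cells it was at -0.06, below replicate 2 at 0.05. The labels do not say whether a number stands for one sorting.

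The genes furthest above the other GFP-positive basal replicates were Rrm2, by 2.18, Top2a, by 2.05, Mki67, by 1.92, and Ccna2, the cyclin of S phase and early mitosis, by 1.9; these were picked by their values. Ccnd1, by 2.62, was further still. The median over the 34 genes was 0.57, against -0.05 over all genes, and 8 of the 34 were above by more than 1 (23.5%, against 1.63% of all genes). The opposite sign was seen for Kif23 (-0.23), Kif20a (-0.11), Tpx2 (-0.09) and Aurka (-0.07), and among the other members for Ccnd3 (-0.52), Cdkn1c (-0.44), Ccnd2 (-0.29), Cdk2 (-0.10) and Cdkn1b (-0.03). On this array the immune markers averaged 3.74, against 3.71 to 3.99 in control basal cells, and the luminal markers 8.79, between the 9.17 and 8.05 of replicates 1 and 2.

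**Figure D4:**
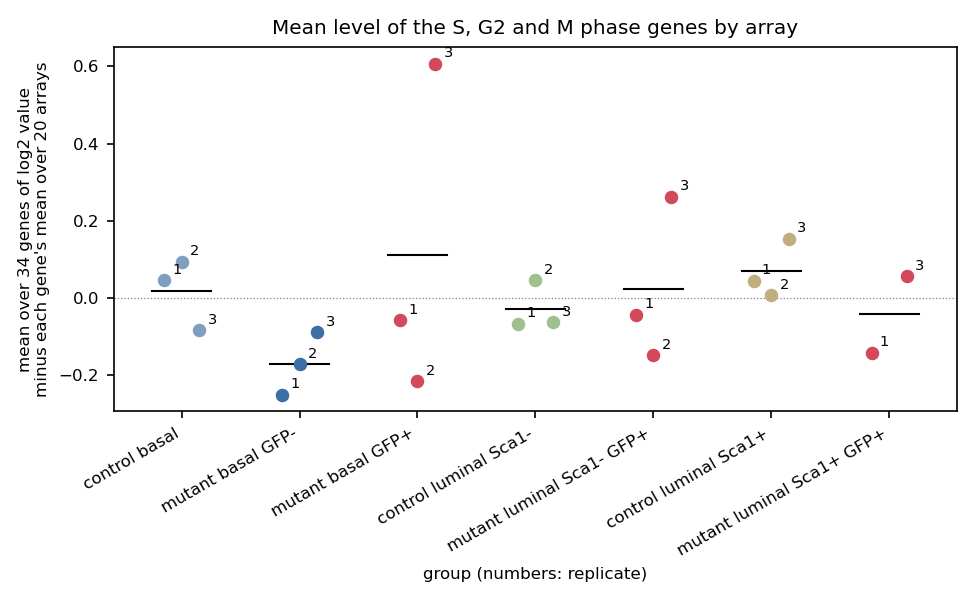
Mean over the 34 S, G2 and M phase genes of the log2 value minus each gene's mean over the 20 arrays, by group; each point is 1 array labelled with its replicate number and bars are group means. Replicate 3 of mutant basal GFP+ cells stands at 0.61, next is replicate 3 of mutant luminal Sca1- GFP+ cells at 0.26, and all others lie between -0.25 and 0.15.

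Comparing mutant with control cells, 0 of the 43 members were called in Sca1-negative luminal cells (1.9% of all genes were) and 0 in Sca1-positive luminal cells (0.226%), by limma's test. At an unadjusted p under 0.05 there were 3 (11.2% of all genes were) and 2 (8.96%). The 34 S, G2 and M phase genes had a median difference of 0.01 in Sca1-negative cells (21 positive and 13 negative, where 42.3% of all genes were positive), and of -0.04 in Sca1-positive cells (12 positive, where 39.2% of all genes were). Without replicate 3 the Sca1-negative median was -0.06, with 13 positive.

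In basal cells Cdkn1c alone was called in GFP-positive over control cells and in GFP-positive over GFP-negative cells, as above, and 5 and 9 members had an unadjusted p under 0.05, as had 16.0% and 13.5% of all genes. Between GFP-negative mutant and control basal cells 0 members were called (0.161% of all genes), with 6 at an unadjusted p under 0.05 (9.69% of all genes). The median of the 34 S, G2 and M phase genes was 0.11 for GFP-positive over control cells (23 positive, where 43.3% of all genes were). It turned to -0.08 (14 positive, where 46.7% of all genes were) without GFP-positive replicate 3. For GFP-negative over control cells it was -0.17, with 29 of 34 negative. Over all genes the median there was -0.02, with 44.2% positive. For GFP-positive over GFP-negative cells the median of the 34 genes was 0.29 (29 positive, where 47.9% of all genes were). Without GFP-positive replicate 3 it was 0.07 (23 positive, where 51.2% of all genes were). These 3 comparisons share arrays. In the interactions with Sca1-positive luminal cells and between the luminal gates 0 members were called (1.09% and 0.14% of all genes), with 3 and 0 at an unadjusted p under 0.05 (10.2% and 5.66% of all genes).

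**Figure D5:**
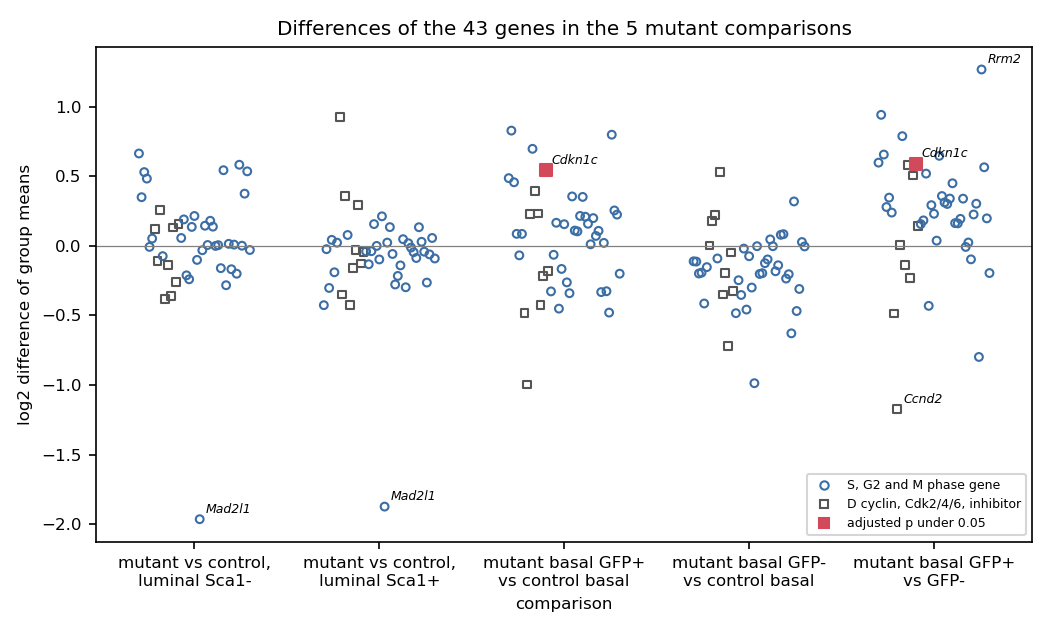
Log2 differences of the 43 genes in the 5 comparisons of mutant cells, with 1 point per gene; circles are S, G2 and M phase genes, squares the D cyclins, Cdk2, Cdk4, Cdk6 and inhibitors. Filled red squares mark Cdkn1c, the gene with an adjusted p under 0.05 in 2 of the comparisons; genes beyond 1 in either direction are named, among them Mad2l1 at -1.96 and -1.87.

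Between lineages, the members called were mainly D cyclins, Cdk2, Cdk4, Cdk6 and Cdkn1c. In controls 1 of 43 (Ccnd2) was called between basal and Sca1-negative luminal cells (9.89% of all genes), 2 (Ccnd2 and Mad2l1) between basal and Sca1-positive luminal cells (12.3%), and 1 (Cdk6) between the luminal gates (0.762%). Among mutant GFP-positive cells 4 (Ccnd2, Cdk4, Cdkn1c and Cdk6) were called between basal and Sca1-negative luminal cells (9.59%) and 6 (Ccnd1, Ccnd2, Cdk2, Cdk4, Cdkn1c and Kif23) between basal and Sca1-positive luminal cells (10.7%). Between the mutant luminal gates 0 were called (4.08%), with 3 at an unadjusted p under 0.05 (12.6% of all genes). Mki67 and Top2a were in none of these sets. When only the arrays compared were fitted, Ccnd2 was the 1 call left between mutant basal and Sca1-positive luminal cells, and Cdk4 was lost against Sca1-negative luminal cells (adjusted p = 0.0646).

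A wider set of 141 measured genes around the same pathway, written as lists of E2F, pocket protein, origin, DNA synthesis, mitotic and p53 target genes, was counted in the same fits. In Sca1-negative luminal cells 1 of 141 was called (0.709%, against 1.9% of all genes), in Sca1-positive luminal cells 1 (against 0.226%), in GFP-positive over control basal cells 4 (2.84%, against 4.23%) and in GFP-positive over GFP-negative basal cells 6 (4.26%, against 3.25%). In GFP-negative over control basal cells 0 were called (against 0.161%), with 7 at an unadjusted p under 0.05. The gene called in both luminal gates was Rb1, the retinoblastoma protein that D cyclin kinases inactivate. Rb1 was 8.45, 8.73 and 8.75 in mutant and 7.55, 6.94 and 7.10 in control Sca1-negative luminal cells, and 7.10 and 7.31 in mutant and 5.94, 6.09 and 6.20 in control Sca1-positive luminal cells. The arrays did not overlap in either gate. Rb1 rose by 1.45 (2.73-fold, SE 0.190, adjusted p = 0.000510) and by 1.13 (2.18-fold, SE 0.212, adjusted p = 0.0431). In basal cells it was 6.70, 6.61 and 6.79 (GFP-positive), 6.72, 6.25 and 6.69 (control) and 6.23, 5.47 and 5.90 (GFP-negative), and the GFP-positive cells exceeded the GFP-negative ones by 0.83 (adjusted p = 0.0234). The Sca1-negative luminal call was kept in all 29 other fits. The Sca1-positive one was lost in 19 of 29 (adjusted p up to 0.417), among them every fit that left out 1 array other than control basal replicate 2, control Sca1-negative luminal replicates 1 and 2 and GFP-negative basal replicates 1 and 2. The basal one was lost in 5, without GFP-negative replicate 2 or 3 (adjusted p = 0.0913 and 0.0524), without GFP-positive replicate 1 or 3 (0.0669 and 0.0831) and with only the arrays compared (0.203).

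In GFP-positive over control basal cells, Plk2, a polo-like kinase induced by p53, rose by 0.66 (adjusted p = 0.0125) and Ncaph, a condensin subunit, by 0.39 (adjusted p = 0.0410). The Ncaph means, 3.96 against 3.57, were near the median of all gene values (3.83). Tfdp2, the DNA-binding partner of E2F factors, fell by 0.82 (adjusted p = 0.0269) and Orc3, a subunit of the origin recognition complex, fell by 0.61 (adjusted p = 0.0175). Tfdp2 was 5.57, 5.44 and 5.6 in GFP-positive against 6.21, 6.40 and 6.45 in control basal cells, with luminal arrays at 4.99 to 5.40, so it lay nearer the luminal values. Over GFP-negative basal cells, Plk2 (0.61), Ncaph (0.43) and Mdm2, the p53 inhibitor (0.98, adjusted p = 0.0211), were higher, and Tfdp2 (-0.84) and Smc1a, a cohesin subunit (-0.79, adjusted p = 0.0244), were lower. In GFP-positive over control basal cells, Plk2 missed the threshold without GFP-positive replicate 1 or 3 (adjusted p = 0.0532 and 0.0521), Orc3 without control replicate 3 or GFP-positive replicate 1 (0.0815 and 0.0814), and Tfdp2 without control replicate 2 or 3 or any GFP-positive replicate (0.0587 to 0.0885). Orc3 also missed it with quantile normalization (adjusted p = 0.0623), Orc3 and Tfdp2 with the trended robust prior (0.0718 and 0.0504), and Plk2 and Orc3 with only the arrays compared (0.203 and 0.121). Ncaph missed it in 13 of 28 other fits (adjusted p up to 0.262), among them those without control basal replicate 1 or 3, GFP-positive basal replicate 2 or 3, control Sca1-negative luminal replicate 1 or 3, the replicates 3 of control Sca1-positive and mutant Sca1-negative luminal cells, or either mutant Sca1-positive luminal array. Over GFP-negative basal cells each of these 5 calls was lost without some arrays of that comparison: Plk2 and Smc1a without GFP-negative or GFP-positive replicate 1 or 3 (adjusted p = 0.0614 to 0.0983 and 0.0616 to 0.107), Ncaph without replicate 2 or 3 of either (0.0762 to 0.0971), Mdm2 without GFP-negative replicate 1 or 3 or GFP-positive replicate 3 (0.0767 to 0.0963), and Tfdp2 without GFP-negative replicate 1 or 2 or any GFP-positive replicate (0.0638 to 0.119). With only the arrays compared all 5 were lost (adjusted p = 0.133 to 0.393), as was Ncaph with array weights (0.0771) and Tfdp2 with the trended robust prior (0.0535).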

How the data were processed

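RNA of 2000 sorted cells per sample was amplified, labelled and hybridised to 20 Affymetrix arrays, per the labels' protocols. The authors deposited 1 table of log2 values per probe set; the submitters' processing notes name affy, and the background correction, normalization and annotation version are not given in the sources used here. Of 34760 probe sets, 21640 had 1 gene symbol, 1321 several and 11799 none in the platform annotation; single-symbol probe sets gave 19937 genes, with the highest mean over the arrays chosen where a gene had several. Values were used as deposited.

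One linear model of the 7 group means over all 20 arrays was fitted by lmFit and eBayes of limma 3.58.1 (R 4.3.3), with 14 contrasts and a moderated F test, Benjamini-Hochberg adjustment over all 19937 genes, and calls at an adjusted p under 0.05. The fit was tested on simulated data. Array values are given for members called in a mutant comparison, for 12 further members with the lowest p in the F test, and always for Mki67, Top2a, Cdk1, Ccnd1, Ccnd2, Cdkn1b, Mcm2, Pcna, Foxm1 and E2f1. Wider genes are those called in a mutant comparison or, between lineages, up to 3 called genes with the lowest p per list. The members and the gene lists were chosen with earlier results of these data known. The alternatives were array weights, quantile normalization, median centring, genes above the median level, the mean of a gene's probe sets, only the arrays compared, a replicate block, the pool as a random block, a trended robust prior, and leaving out each array. The p-values measure the spread between separately sorted pools, gates of one sorting may share animals, and precision is limited by how few arrays there are. Residual correlations did not settle whether replicate numbers pair the samples, and the main fit used no pairing. Same-numbered arrays had a mean residual correlation of 0.02, with 5 of 57 pairs over 0.1. Differently numbered arrays had a mean of -0.01, with 0 of 114 pairs over 0.1. Because residuals were taken from group means, this mean is not independent of that over same-numbered arrays. In 0 of 21 pairs of groups was every same-numbered correlation over 0.1. Promoter windows from RefSeq (GRCm38.p6) were matched by symbol for 32 of the 43 genes.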

Additional observations from a re-analysis of the deposited data

Results flagged for a closer look

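A test of the difference between changes in separate gates singled out 3 genes. For Cdkn1c the change in GFP-positive mutant over control basal cells minus that in Sca1-negative luminal cells was 0.80 (limma adjusted p = 0.0318), from 0.54 and -0.26. For Rb1, a gene of the wider lists, the same difference was -1.30 (limma adjusted p = 0.0204), with Rb1 higher in mutant Sca1-negative luminal cells by 1.45. For Btg2, an antiproliferative gene of the wider lists, the change in basal cells minus that in Sca1-positive luminal cells was -1.36 (limma adjusted p = 0.0437), with means of 9.20 in control and 8.69 in GFP-positive basal cells, and of 8.52 in control and 9.37 in mutant Sca1-positive luminal cells. Of 29 other fits, the Cdkn1c call was lost in 13 (adjusted p up to 0.0907), the Rb1 call in 7 (up to 0.0590) and the Btg2 call in 16 (up to 0.152). Rb1 missed the threshold without control basal replicate 1 or 3, control Sca1-negative luminal replicate 2 or 3, GFP-positive basal replicate 2 or mutant Sca1-negative luminal replicate 2 or 3. Btg2 was kept, among the fits without 1 array, without control basal replicate 1, control Sca1-negative luminal replicate 3, mutant Sca1-negative luminal replicate 2 or any GFP-negative basal array.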

How the results depend on the processing

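No called difference of a named gene changed sign in these fits. The medians of the 34 S, G2 and M phase genes, which carry no test, did: without replicate 3 of the mutant group, that of GFP-positive over control basal cells went from 0.11 to -0.08 and that of Sca1-negative luminal cells from 0.01 to -0.06. In GFP-positive over control basal cells 0 members were called when only the arrays compared were fitted and when the 2 arrays of narrowest spread (control Sca1-positive luminal and GFP-positive basal replicates 2, an alternative chosen after seeing the data) were left out. For GFP-positive over GFP-negative basal cells there were 2 with array weights, quantile normalization, the mean of a gene's probe sets or the pool as a random block, and 0 with only the arrays compared; without the narrow arrays there was 1, Cdk4 in place of Cdkn1c. Control basal against Sca1-negative luminal cells gave 2 with array weights or quantile normalization and 3 among genes above the median level. Control Sca1-positive against Sca1-negative luminal cells gave 0 with only the arrays compared or without the narrow arrays. Mutant basal against Sca1-positive luminal cells gave 1 with only the arrays compared, and the mutant luminal gates 1 with array weights. The interaction of basal and Sca1-negative luminal cells gave 0 with quantile normalization, the trended robust prior, only the arrays compared, without the narrow arrays, and with the replicate block.

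With the replicate number as a block, Cdkn1c in that interaction had an adjusted p of 0.0513, Prc1 in the F test one of 0.0589, Rb1 in Sca1-positive luminal cells one of 0.0568 and Ncaph in GFP-positive over control basal cells one of 0.0573 (limma); no other call among the members, or among the wider genes in the mutant, interaction and control basal against luminal comparisons, was lost. The fits of the wider genes were added after seeing the data. Leaving out 1 array at a time gave 7 to 9 members in the F test, 0 to 2 in GFP-positive over control basal cells, 0 to 3 over GFP-negative basal cells, 1 to 2 and 2 to 3 in control basal against Sca1-negative and Sca1-positive luminal cells, and 0 to 1 between control luminal gates. It gave 3 to 5 and 2 to 8 in mutant basal against Sca1-negative and Sca1-positive luminal cells, 0 to 1 in the interactions of basal with either luminal gate, and 0 in the other comparisons. The cause of these differences was not tested. Signal near the low end of the scale limits 17 of the 43 members.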

Other observations

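Between control lineages, 17 of the 141 wider cell cycle genes were called between basal and Sca1-negative luminal cells (7 higher in basal cells; 12.1%, against 9.89% of all genes) and 19 between basal and Sca1-positive luminal cells (8 higher; 13.5%, against 12.3%), by limma's test. Among the 3 called genes of lowest p in each list, those lower in basal cells in both were Trp53inp1, a p53 target (-2.74 and -3.37), Anln, an actin-binding protein of the cleavage furrow (-2.03 and -2.81), Tk1, the thymidine kinase of the salvage pathway (-1.93 and -2.05), Gadd45a, a stress-induced growth arrest gene (-1.60 and -2.03), Zwint, a kinetochore protein (-1.31 and -1.69), the antiproliferative gene Btg1 (-1.28 and -0.81), and Plk2 (-0.97 and -1.0). Higher in basal cells in both were Phlda3, a p53 target that restrains AKT (2.32 and 2.33), Btg2 (1.14 and 0.68), Tfdp2 (1.01 and 1.25), the INK4 inhibitor Cdkn2d (0.89 and 0.60), Smc1a (0.80 and 0.88) and Cdc25a, a phosphatase that activates cyclin-dependent kinases (0.70 and 0.66). Also called, in one of them, was Wee1, a kinase that inhibits Cdk1, against Sca1-negative cells (-1.33). Against Sca1-positive cells these were Ccnf (-0.71), Cks2 (-1.32), Cdkn2b (-0.68) and Ckap2 (0.63). Any gap between these comparisons is the difference between the control luminal gates, which was fitted but is not given here for these genes. The calls of Btg2, Cks2 and Ckap2 against Sca1-positive cells were lost in 9, 8 and 5 of 29 other fits. The comparisons share the control basal arrays. Tk1 was not low in all basal cells. It was 7.41, 6.13 and 7.06 in GFP-negative mutant basal cells, against 4.58, 4.86 and 4.68 in control basal cells. Tk1 and Cks2 had further single-symbol probe sets, whose values are not given here. Cdc25a was near the low end of the scale, with a mean of 3.96 in control basal cells and 3.26 and 3.30 in the control luminal gates.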
